A study of Homo sapiens with 12 samples.

Results

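Of the 3281 genes that the authors' deposited tables list as changed by lipopolysaccharide (LPS) in PMA-treated THP-1 cells, 7 belong to growth factor and TGF-beta pathways and are described here: INHBA, PDGFB, EREG, TGFBR3, NRROS, IGFBP3 and ID3. A gene was taken where its symbol stands in either table, and the tables' genes were chosen by the authors' response to LPS. A table holds those whose change between 3 hr and 0 hr in S80A or in WT cells exceeded a log2 size of 1 at an authors' adjusted p below 0.01. PDGFB and INHBA stood in both tables, TGFBR3, EREG and IGFBP3 in the WT table alone, and NRROS and ID3 in the S80A table alone. The response to LPS therefore chose these genes and is given as a description, while the difference between genotypes at 1 time was fitted, on the same libraries. For a gene in 1 table alone, the values that put it there also enter that difference. Where this choice favours the sign found, a difference that passed is given with its SE and no p, as a description.

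THP-1 cells come from a human monocytic leukaemia and become macrophage-like when given PMA, a phorbol ester. The 4 groups of 3 libraries were S80A cells 3 hr after LPS, S80A cells without LPS (0 hr), WT cells 3 hr after LPS and WT cells without LPS. All 4 groups had received PMA at 25 ng/ml for 72 hr and then 4 days without it, and LPS was given at 10 ng/ml. S80A cells carry alanine in place of serine 80 of p50, the DNA-binding NF-kB subunit encoded by NFKB1. How the S80A cells were made and whether they are 1 clone is not given in the sources used here, so the genotype and the cell line that carries it cannot be told apart. The series asks how phosphorylation of this serine affects transcription induced by LPS.

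Values are given as scaled reads, each the read number over the size factor of its library, and the libraries held 1924562 to 5789918 reads on the listed genes. In the mean distance of these genes from the WT average, S80A replicate 1 was the nearest S80A library to WT at both times, at 1.26 against 1.52 and 1.60 (root mean square log2 difference) at 3 hr and 1.02 against 1.29 and 1.41 at 0 hr. The 5 calls at 3 hr described below also held without it. Of 12 fixed macrophage markers 4 stood in a table, and they summed to 2480 to 3030 scaled reads in S80A cells at 3 hr, 5151 to 9912 in S80A cells at 0 hr, 1797 to 2566 in WT cells at 3 hr and 4593 to 6714 in WT cells at 0 hr. Of 12 markers of undifferentiated myeloid precursors 3 stood in a table (CD34, GFI1 and CEBPE), and they summed to 209.7 to 378.9 scaled reads in S80A cells at 3 hr, 466 to 799 in S80A cells at 0 hr, 634 to 926 in WT cells at 3 hr and 2269 to 2575 in WT cells at 0 hr. Nearly all of these precursor sums was GFI1, at 250 ± 75.6 in S80A cells at 3 hr and 554 ± 166 at 0 hr, against 764 ± 145 in WT cells at 3 hr and 2323 ± 162 at 0 hr (SD, n = 3 each). Of 7 genes taken as signs of RNA quality 4 stood in a table (NEAT1, MALAT1, HSPA1A and HSPA1B), and they summed to 6597 to 8136 scaled reads in S80A cells at 3 hr, 1957 to 2501 in S80A cells at 0 hr, 2909 to 6113 in WT cells at 3 hr and 1606 to 1936 in WT cells at 0 hr, without overlap of the genotypes at either time. At 3 hr MALAT1 was higher in S80A cells (log2 difference 1.19, SE 0.23) and HSPA1B lower (-0.85, limma adjusted p = 0.0272). The part of these marker differences in the results below was not tested. None of the 8 fibroblast markers was listed, and the endothelial and lymphocyte lists had 1 listed gene each (KDR and CD79B), which reached at most 88.2 and 45.8 scaled reads in a library.

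TGF-beta, the activins and the BMPs are dimeric ligands that signal through paired serine/threonine kinase receptors to SMAD proteins, which enter the nucleus and regulate genes such as the ID family. TGF-beta is secreted in a latent form that is held on cell surfaces and matrix and has to be released before it can signal, in part by integrins. Macrophages are a known source of activin A, PDGF and EGF family ligands, which act on neighbouring cells such as fibroblasts and epithelium.

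The codon changed in S80A cells lies in NFKB1 on chromosome 4. The stretch from residue 75 to residue 85 of the full-length form is shown as the reference has it (GENCODE release 29, GRCh38), with the serine codon in capitals. The base change that gives alanine in S80A cells was not analysed here.
NFKB1: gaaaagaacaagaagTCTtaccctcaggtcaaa

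The 250 bases before the annotated start are shown for the 4 of these genes that LPS raised in WT cells and that have an entry in the RefSeq promoter table (GRCh38.p14), which covers 6 of the 7 genes. Capitals mark matches on either strand to a loose NF-kB form (GGGNNNNNCC), an AP-1 form (TGANTCA), a CRE-like form (TGANGTCA) and TATAAA. Only the first start listed for each gene was used. The windows of TGFBR3, INHBA and IGFBP3 lie inside the GENCODE spans of these genes given below, so their starts are not the outermost ones. Other starts were not searched. The sequences are TGFBR3 at chr1:91886152-91886401 (minus strand), INHBA at chr7:41703091-41703340 (minus), EREG at chr4:74364895-74365144 (plus) and IGFBP3 at chr7:45921273-45921522 (minus).
TGFBR3: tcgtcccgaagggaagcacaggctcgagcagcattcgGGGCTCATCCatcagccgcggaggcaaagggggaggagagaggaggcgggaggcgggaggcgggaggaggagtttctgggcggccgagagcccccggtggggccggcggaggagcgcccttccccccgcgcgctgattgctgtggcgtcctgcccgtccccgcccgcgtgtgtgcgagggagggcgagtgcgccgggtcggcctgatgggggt
INHBA: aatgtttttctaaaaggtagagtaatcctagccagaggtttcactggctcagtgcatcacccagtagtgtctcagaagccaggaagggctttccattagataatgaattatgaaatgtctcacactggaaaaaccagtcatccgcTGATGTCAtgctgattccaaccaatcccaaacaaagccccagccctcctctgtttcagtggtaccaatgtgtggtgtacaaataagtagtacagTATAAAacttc
EREG: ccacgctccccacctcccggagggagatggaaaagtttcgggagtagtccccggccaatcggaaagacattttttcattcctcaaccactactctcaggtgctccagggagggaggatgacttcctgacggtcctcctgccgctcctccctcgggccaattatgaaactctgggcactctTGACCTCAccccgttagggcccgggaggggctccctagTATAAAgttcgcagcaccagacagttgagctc
IGFBP3: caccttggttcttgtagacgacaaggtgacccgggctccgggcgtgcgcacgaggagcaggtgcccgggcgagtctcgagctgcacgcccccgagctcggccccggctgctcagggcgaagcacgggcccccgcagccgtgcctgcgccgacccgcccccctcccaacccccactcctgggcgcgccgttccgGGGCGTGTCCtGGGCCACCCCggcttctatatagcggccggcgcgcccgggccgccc

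The INHBA window held a CRE-like match 105 to 98 bases before the start and TATAAA 11 to 6 bases before it. The EREG window likewise held a CRE-like match, on the other strand, 70 to 63 bases before the start, and TATAAA 32 to 27 bases before it. IGFBP3 had 2 sites of the NF-kB form at 57 to 48 and 46 to 37 bases before the start, the second of them read on both strands, and TGFBR3 had 1 at 213 to 204 bases. Among 35116 promoters of the same length, 54.4% held the NF-kB form, 6.87% the CRE-like form, 10.7% TATAAA and 6.57% the AP-1 form, of which the 6 windows had none. No matches of the set overlapped those of another motif, and binding was not measured.

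Among the 7 genes, the authors' deposited tables listed 2 as risen (PDGFB and INHBA) and 2 as fallen (NRROS and ID3) in S80A cells after LPS, against 5 as risen (PDGFB, INHBA, TGFBR3, EREG and IGFBP3) and 0 as fallen in WT cells. The number of genes that the authors tested was inferred as 17486 from their p-values and adjusted p-values. Of these, 8.67% rose and 5.67% fell in S80A cells, and 8.24% rose and 5.11% fell in WT cells. Since the tables chose the genes, nothing is read from the comparison of these shares.

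**Figure D1:**
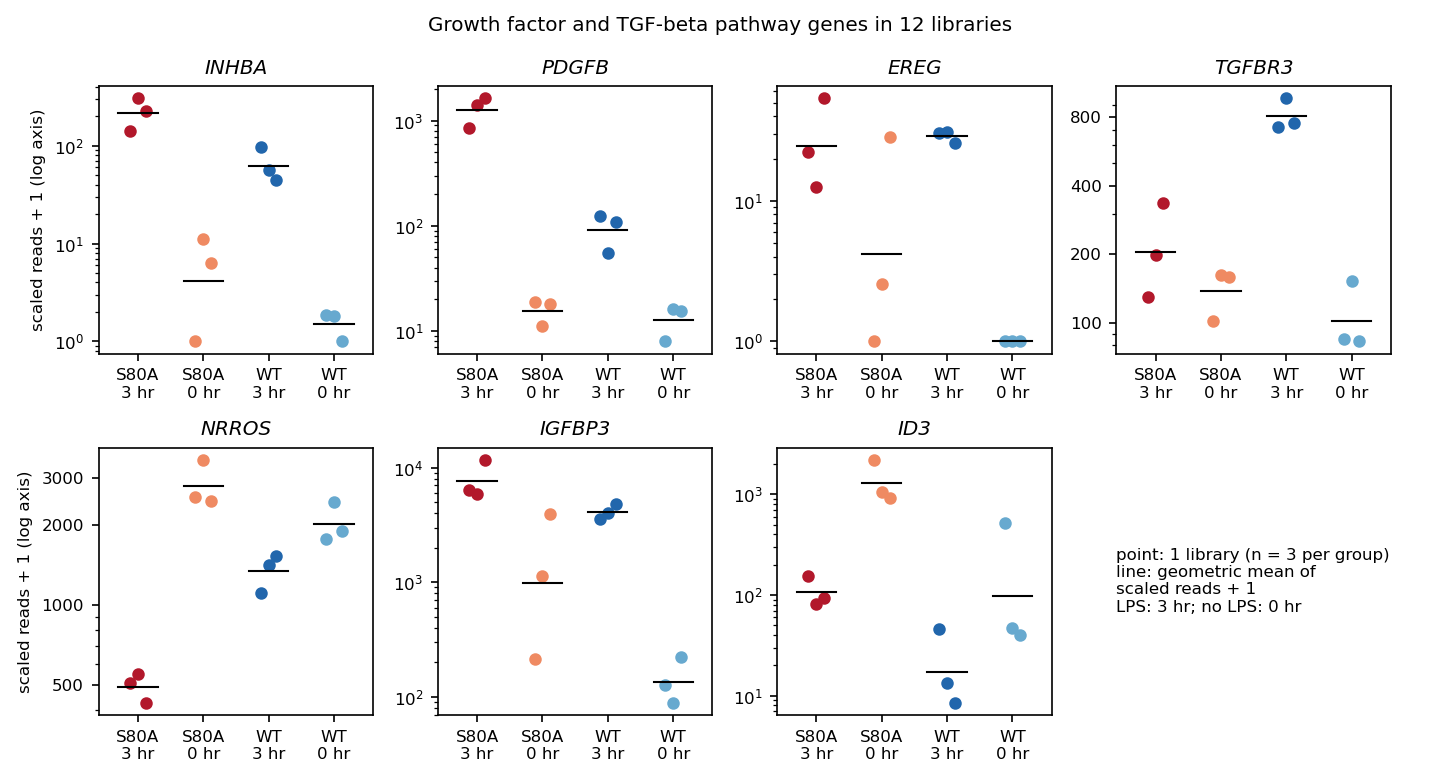
Scaled reads + 1 (log axis, its range differing between panels) of the 7 genes in each of the 12 libraries, with S80A libraries at 3 hr and 0 hr left of WT libraries at 3 hr and 0 hr; points are libraries and lines are geometric means of 3. PDGFB is highest in the 3 S80A libraries after LPS, TGFBR3 in the 3 WT libraries after LPS, and NRROS is lowest in the 3 S80A libraries after LPS.

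At 3 hr after LPS, 3 of the 7 genes were higher in S80A than in WT cells (PDGFB, ID3 and INHBA) and 2 were lower (TGFBR3 and NRROS), by limma on log2(scaled reads + 1) with Benjamini-Hochberg adjustment over 3281 genes. Of these calls, those of TGFBR3 and NRROS have the sign that their choice favours, and that of ID3 has the opposite sign. Of all listed genes 29.2% were higher and 17.7% lower at this time, 47% in all, so differences between genotypes were common. At 0 hr limma called 0 of the 7 genes, where 20.1% of listed genes were higher and 10.6% lower, 30.7% in all. At an unadjusted p under 0.05 there were 2 at 0 hr, while edgeR called 1 and DESeq2 called 2. With the replicate number as a block, limma called 1, ID3, with the sign that its choice favours. The median difference of the 7 genes was 0.89 at 3 hr and 1.45 at 0 hr on the log2 scale, beside 0.19 over all listed genes at both times. For TGFBR3, EREG, IGFBP3, NRROS and ID3 the choice favours a positive sign at 0 hr, so nothing is read from the median at that time. Scaling by TMM moved the median of all listed genes to -0.01 at 3 hr and 0.01 at 0 hr. Under it 798 listed genes were called higher and 743 lower at 3 hr (959 and 582 with the authors' scaling), and 492 higher and 457 lower at 0 hr (660 and 347). The 5 calls held under TMM with their direction. Fewer cells of a type and less RNA per cell cannot be told apart in bulk RNA.

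**Figure D2:**
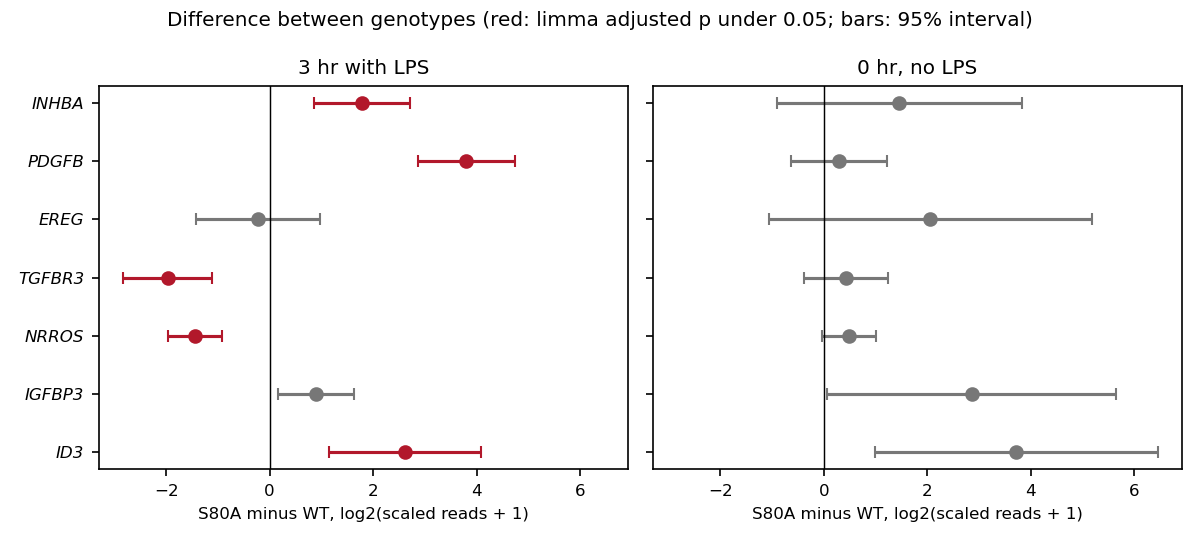
Difference between S80A and WT cells in log2(scaled reads + 1) for the 7 genes at 3 hr with LPS (left) and at 0 hr (right), n = 3 libraries per group; bars are 95% intervals and red marks a limma adjusted p under 0.05. At 3 hr PDGFB, ID3 and INHBA lie above 0 and TGFBR3 and NRROS below it, while the intervals at 0 hr are wide for INHBA, EREG, IGFBP3 and ID3.

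PDGFB encodes the B chain of platelet-derived growth factor, a mitogen for fibroblasts and smooth muscle cells; the gene lies at chr22:39223359-39244751 on the minus strand. It had 851, 1424 and 1637 scaled reads in S80A cells at 3 hr and 17.9, 10.1 and 16.8 at 0 hr, against 122, 54.0 and 107 in WT cells at 3 hr and 6.93, 15.3 and 14.5 at 0 hr. The genotypes did not overlap after LPS and overlapped before it. The mean at 3 hr was 1304 ± 406 in S80A cells and 94.4 ± 35.8 in WT cells (SD, n = 3 each), a ratio of 13.8. The log2 difference was 3.80 ± 0.39 (SE, limma adjusted p = 0.00116), past the threshold in 14 of 14 alternative settings. At 0 hr the means were 14.9 ± 4.24 in S80A cells and 12.2 ± 4.62 in WT cells, a log2 difference of 0.30 with an interval of -0.63 to 1.23 (limma adjusted p = 0.56). The mean rose 87.3-fold with LPS in S80A cells and 7.71-fold in WT cells, and the authors' deposited tables give log2 changes of 6.21 for S80A and 2.78 for WT. This difference between the responses was 3.50 ± 0.56 on the log2 scale (SE, limma interaction over the 1562 genes in both tables, adjusted p = 0.0057), where 4.48% of the 1562 genes were called, 2.69% with the higher and 1.79% with the lower response in S80A cells. The interaction passed the threshold in 20 of 20 alternatives on these genes, with an adjusted p of 1.07e-06 to 0.0194.

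INHBA, at chr7:41667168-41705834 on the minus strand, encodes the beta A chain whose dimer is activin A. It had 141, 305 and 224 scaled reads in S80A cells at 3 hr and 0, 10.1 and 5.25 at 0 hr, against 95.1, 55.0 and 43.9 in WT cells at 3 hr and 0.866, 0.804 and 0 at 0 hr. LPS set the level apart in both genotypes, and after LPS every S80A library lay above every WT library. After LPS the mean was 223 ± 81.8 in S80A cells and 64.7 ± 27.0 in WT cells (SD, n = 3 each), a ratio of 3.45. The log2 difference was 1.78 ± 0.39 (SE, limma adjusted p = 0.0103). The call was lost in a joint fit of all 4 groups (adjusted p = 0.0596) and held in the 13 other alternatives, whose lowest was 7.9e-05. At 0 hr the gene had 18 reads over the S80A libraries and 2 over the WT libraries, a ratio of 10.1 whose 95% exact interval for counting error is 2.42 to 89.6, with a limma adjusted p of 0.284. Without S80A replicate 1 at 0 hr, which had no read, that adjusted p was 0.015, the lowest over 14 alternatives, and the highest was 0.582. The response to LPS was 43.7-fold in S80A cells and 116-fold in WT cells (counting interval 31.6 to 964), beside log2 changes of 4.97 for S80A and 5.22 for WT in the authors' deposited tables. The limma interaction was 0.33 ± 1.01 (SE), with an interval of -1.90 to 2.55 and an adjusted p of 0.923, which spans several fold in either direction.

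EREG, at chr4:74365143-74388751 on the plus strand, encodes epiregulin, a ligand of the EGF receptor family. It had 21.3, 11.5 and 52.8 scaled reads in S80A cells at 3 hr and 0, 1.55 and 27.3 at 0 hr, against 29.4, 30.1 and 24.6 in WT cells at 3 hr and 0, 0 and 0 at 0 hr. No WT library without LPS had a read, and 26 of the 28 S80A reads at 0 hr came from replicate 3, which had more than both other S80A libraries after LPS. The mean at 3 hr was 28.5 ± 21.6 in S80A cells and 28.0 ± 2.97 in WT cells (SD, n = 3 each), and the log2 difference of -0.23 had an interval of -1.43 to 0.97 (limma adjusted p = 0.733). Without LPS the ratio of the S80A to the WT level was at least 10.5 for counting error alone, taking 3 reads over the group as the limit that a count of 0 allows. The 3 S80A libraries were spread so widely that the limma adjusted p was 0.254. Without S80A replicate 3 the log2 difference at 0 hr fell from 2.06 to 0.68. The choice through low WT values at 0 hr favours its sign, so nothing is read from it. LPS raised the level at least 34.0-fold in WT cells by the same limit, and the ratio of means in S80A cells was 2.97.

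TGFBR3, at chr1:91680343-91906335 on the minus strand, encodes betaglycan, a co-receptor that presents TGF-beta and inhibin to the signalling receptors. It had 129, 198 and 333 scaled reads in S80A cells at 3 hr and 102, 162 and 158 at 0 hr, against 720.0, 963 and 752 in WT cells at 3 hr and 84.0, 151 and 82.3 at 0 hr. The 3 WT libraries after LPS stood above the other 9, and those of S80A cells after LPS overlapped with those before it. After LPS the mean was 220.0 ± 104 in S80A cells and 812 ± 132 in WT cells (SD, n = 3 each), a ratio of 0.271. The log2 difference was -1.97 ± 0.36 (SE), and the WT libraries at 3 hr that enter it also put the gene in the WT table. Without LPS the difference was 0.44 with an interval of -0.38 to 1.25 (limma adjusted p = 0.343). The ratio of means with LPS was 1.56 in S80A cells and 7.67 in WT cells, where the authors' deposited table gives a log2 fold change of 2.84. The difference of these responses was -2.41 ± 0.51 on the log2 scale (SE) and was given no test, since the gene is listed in 1 table alone.

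NRROS, at chr3:196639686-196662004 on the plus strand, encodes LRRC33, a leucine-rich repeat protein of myeloid cells that tethers latent TGF-beta to the cell surface. It had 506, 548 and 426 scaled reads in S80A cells at 3 hr and 2552, 3527 and 2463 at 0 hr, against 1108, 1411 and 1533 in WT cells at 3 hr and 1771, 2439 and 1892 at 0 hr. The 3 S80A libraries after LPS were below the other 9, whereas before LPS all 3 S80A libraries lay above every WT library. The mean at 3 hr was 493 ± 61.9 in S80A cells and 1350.5 ± 219 in WT cells (SD, n = 3 each). The log2 difference was -1.45 ± 0.22 (SE), and the S80A libraries at 3 hr that enter it also put the gene in the S80A table. Without LPS the means were 2847 ± 591 in S80A cells and 2034 ± 356 in WT cells, a ratio of 1.40 that did not pass (log2 difference 0.48, limma adjusted p = 0.137). With LPS the ratio of means was 0.173 in S80A cells, beside a log2 fold change of -2.50 in the authors' deposited table, and 0.664 in WT cells. The means thus ran from S80A cells after LPS at the bottom to S80A cells without LPS at the top. The upper end rests on the difference at 0 hr that did not pass and that was 0.29 under TMM scaling. The choice through the fall in S80A cells favours its sign. The difference of the responses was -1.93 ± 0.31 (SE, log2, no test).

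IGFBP3, at chr7:45912245-45921874 on the minus strand, encodes the main carrier of insulin-like growth factors in blood and is also a textbook target of TGF-beta. It had 6381, 5897 and 11723 scaled reads in S80A cells at 3 hr and 211, 1139 and 3959 at 0 hr, against 3561, 4034 and 4781 in WT cells at 3 hr and 126, 87.7 and 223 at 0 hr. Replicate 3 was the highest library in each of the 4 groups, and at 0 hr the lowest S80A library lay below the highest WT library. After LPS the mean was 8001 ± 3233 in S80A cells and 4126 ± 615 in WT cells (SD, n = 3 each), with a log2 difference of 0.89 ± 0.31 (SE) whose limma adjusted p of 0.0512 missed the threshold. It passed in 6 of 14 alternatives, over which the adjusted p ran from 0.00934 to 0.382. Without LPS the mean was 1770 ± 1952 in S80A cells and 145 ± 69.6 in WT cells, a ratio of 12.2 with a log2 difference of 2.86 ± 1.11 (SE, limma adjusted p = 0.107), a sign that the choice through low WT values at 0 hr favours. Leaving out 1 library moved it from 1.86, without S80A replicate 3, to 3.97, without S80A replicate 1. Here 5 of 14 alternatives passed, edgeR and DESeq2 among them, which is not read as support since the choice favours the sign. The ratio of means with LPS was 4.52 in S80A cells and 28.4 in WT cells, for which the authors' deposited table gives a log2 fold change of 3.94.

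ID3, at chr1:23557918-23559794 on the minus strand, encodes an inhibitor of basic helix-loop-helix transcription factors and is a textbook target of BMP and SMAD signalling. It had 155, 80.5 and 93.5 scaled reads in S80A cells at 3 hr and 2212, 1067 and 928 at 0 hr, against 44.6, 12.5 and 7.49 in WT cells at 3 hr and 516, 45.8 and 38.7 at 0 hr. Replicate 1 was the highest library in each of the 4 groups, and at both times every S80A library lay above every WT library. The mean at 3 hr was 109.6 ± 39.6 in S80A cells and 21.5 ± 20.2 in WT cells (SD, n = 3 each), a ratio of 5.09. The log2 difference was 2.62 ± 0.62 (SE, limma adjusted p = 0.014). The call was lost without WT replicate 2 at 3 hr (adjusted p = 0.0509) and held in the 13 other alternatives, whose lowest was 0.000427. Without LPS the mean was 1402 ± 705 in S80A cells and 200.2 ± 274 in WT cells, a log2 difference of 3.72 ± 1.09 (SE) with a limma adjusted p of 0.0526 and the sign that the choice favours. It passed in 7 of 14 alternatives, the replicate number as a block among them, which is not read as support for that reason. With LPS the mean was 12.8-fold lower in S80A cells and 9.30-fold lower in WT cells, and the authors' deposited S80A table gives a log2 fold change of -2.96 with an adjusted p of 0.000848, the member value nearest to the authors' limit on p.

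Absence from a table did not always go with a small change. On the log2(scaled reads + 1) scale, the 3 genes outside the S80A table changed with LPS by 0.56 (TGFBR3), 2.57 (EREG) and 2.95 (IGFBP3) in S80A cells. The 2 genes outside the WT table changed in WT cells by -0.59 (NRROS) and -2.51 (ID3). The changes of EREG, IGFBP3 and ID3 were beyond the size of 1 that the authors used as a limit on log2 fold, and in each of them the 3 libraries of that genotype at 0 hr were widely spread. Within the tables, the member nearest to the fold limit was NRROS in S80A cells, at -2.50.

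**Figure D3:**
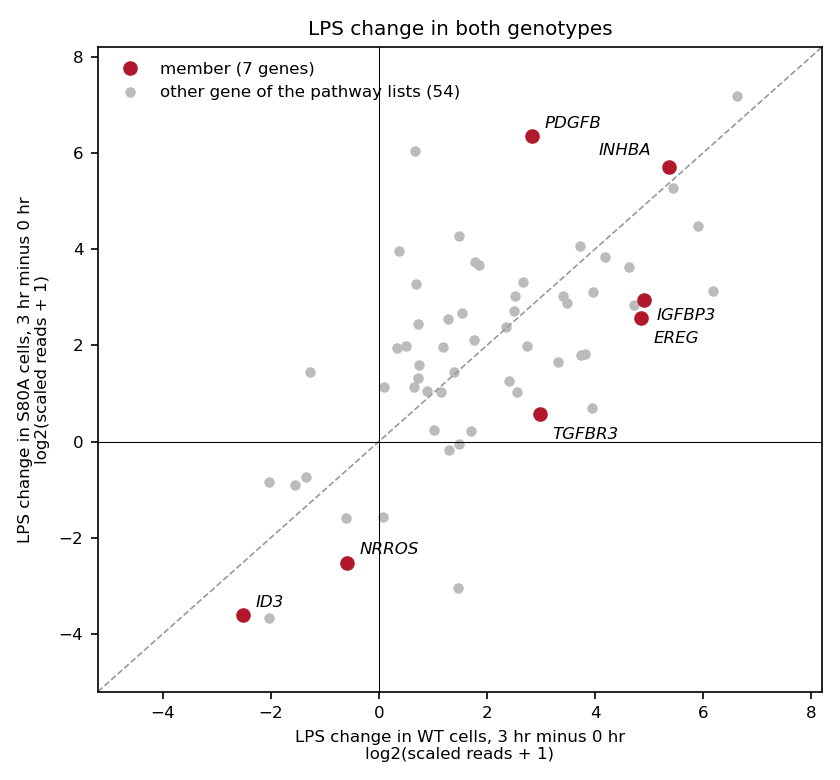
Change with LPS (3 hr minus 0 hr, log2(scaled reads + 1)) in S80A cells (vertical axis) against that in WT cells (horizontal axis) for the 7 genes in red and the 54 other listed genes of the pathway lists in grey; the dashed line marks equal change. PDGFB lies above the line, at 6.34 in S80A and 2.84 in WT cells, TGFBR3, NRROS, EREG, IGFBP3 and ID3 lie below it, and INHBA lies near it.

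Per kilobase of exon, levels at 3 hr were highest for IGFBP3, at 1750 scaled reads per kb in S80A cells and 903 in WT cells, and lowest for EREG, at 4.99 in S80A cells and 4.90 in WT cells. Between them stood PDGFB with 347 in S80A cells and 25.1 in WT cells, and NRROS with 169 in S80A cells and 464 in WT cells. The remaining levels per kb were 61.0 in S80A cells and 12.0 in WT cells for ID3, 26.9 in S80A cells and 7.79 in WT cells for INHBA, and 25.3 in S80A cells and 93.2 in WT cells for TGFBR3. Exon sequence of PDGFB overlaps the span of the antisense gene AL031590.1, that of INHBA the span of INHBA-AS1, and that of NRROS, on the same strand, the span of PIGX. The strand setting of the counting is not given in the sources used here, so reads of these partners cannot be told apart.

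The 7 genes did not share 1 profile over the 12 libraries. By the root mean square difference of centred log2 values, the nearest pair was EREG and IGFBP3 (0.72) and the farthest was INHBA and ID3 (4.59). Among 3077 listed genes, the nearest to PDGFB was ACKR3 (0.62), a chemokine-scavenging receptor. INHBA was nearest to BCL2A1 (0.60), an anti-apoptotic BCL2 relative, and ICAM1 (0.73), an adhesion molecule. TGFBR3 was nearest to CNTNAP1 (0.41) and JADE2 (0.48), and NRROS to SMYD4 (0.30) and PGBD1 (0.31). EREG was nearest to RAB27B (0.64), IGFBP3 to LRFN5 (0.63) and MAFF (0.64), and ID3, at a larger distance, to C2orf91 (1.05) and DLX3 (1.06).

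The 10 pathway lists held 189 genes, of which 61 stood in a table, the 7 genes included. By the authors' deposited tables, 39 of these rose and 6 fell with LPS in S80A cells, and 37 rose and 5 fell in WT cells. Over the 3281 listed genes 1516 rose and 992 fell in S80A cells, and 1441 rose and 894 fell in WT cells, and the lists take only genes that stand in a table. At 3 hr 31 of the 61 were higher in S80A than in WT cells and 6 were lower, with a median log2 difference of 1.18. Before LPS 25 were higher and 3 lower, with a median of 1.00, beside 0.19 over all listed genes. As shares these were 50.8% higher and 9.84% lower at 3 hr and 41% higher and 4.92% lower at 0 hr, beside 29.2% and 17.7% of all listed genes at 3 hr and 20.1% and 10.6% at 0 hr. Under TMM scaling 26 were higher and 6 lower at 3 hr and 19 higher and 3 lower at 0 hr, and edgeR gave 32 higher and 8 lower at 3 hr and 23 higher and 3 lower at 0 hr. Among the 26 list genes in both tables, a subset chosen after seeing the data, 15 were higher and 0 lower at 3 hr and 13 higher and 1 lower at 0 hr. The shares over all 1562 genes in both tables were 28.7% higher and 11.8% lower at 3 hr and 19.9% higher and 8.32% lower at 0 hr. For a list gene in 1 table alone, the choice can favour the sign of its call. This holds for the counts over all lists and for those of each list below. Without the 7 genes the counts were 28 higher and 4 lower of 54 at 3 hr and 25 higher and 3 lower at 0 hr. Markers moved along with these differences in both directions. Of the 3 precursor markers, GFI1 was lower in S80A cells at 3 hr (log2 difference -1.63, limma adjusted p = 0.00444) and at 0 hr (-2.10, adjusted p = 0.00458), while limma called neither CD34 (0.64 at 3 hr and 0.36 at 0 hr) nor CEBPE (-0.02 at 3 hr and -1 at 0 hr). Of the 4 macrophage markers, MERTK, a phagocytic receptor, was higher at 3 hr (2.63, limma adjusted p = 0.000785) and at 0 hr (1.22, adjusted p = 0.00814). The others did not pass: CD14 (0.74 at 3 hr and 0.56 at 0 hr), CD163 (-0.53 at 3 hr and -1.11 at 0 hr) and FCGR3A (-0.00375 at 3 hr and -1.16 at 0 hr). Their part in the list counts was not tested.

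**Figure D4:**
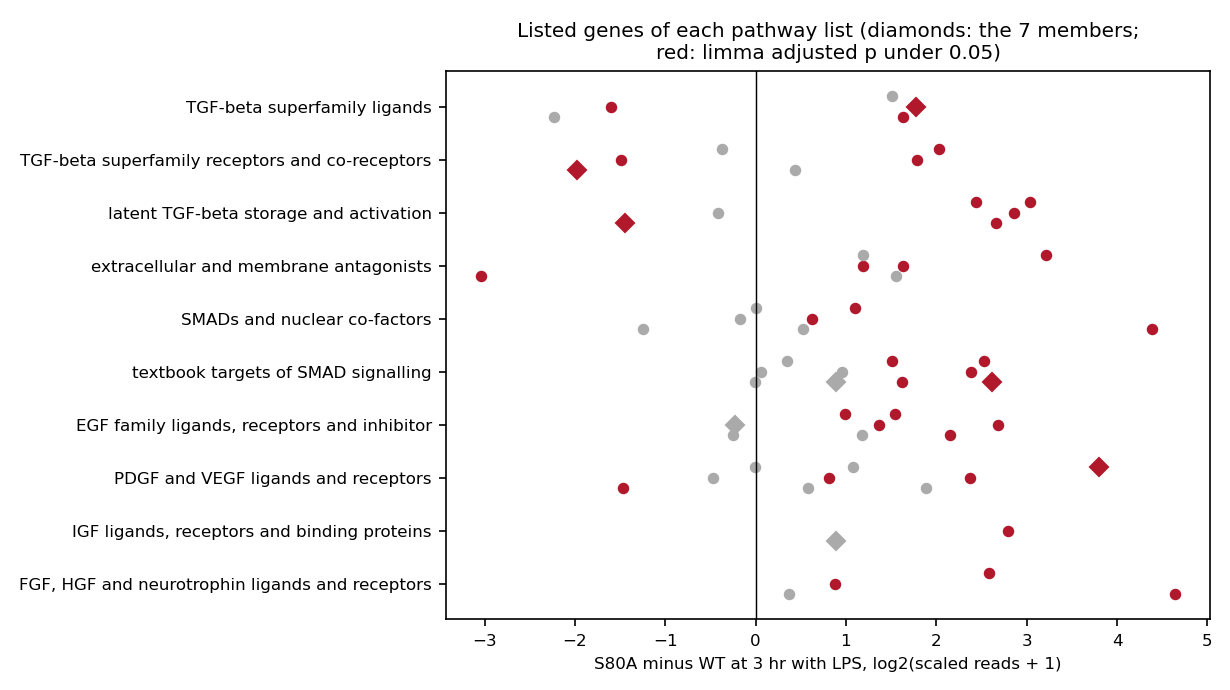
Difference between S80A and WT cells at 3 hr with LPS, in log2(scaled reads + 1), for the listed genes of each of the 10 pathway lists; diamonds are the 7 genes, and red marks a limma adjusted p under 0.05. In the list of latent TGF-beta storage and activation, NRROS lies below 0, at -1.45, and 4 genes lie above 2.

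The list of latent TGF-beta storage and activation held NRROS and its relatives in function. Of its 15 genes 6 were listed, and at 3 hr 4 were higher in S80A cells (LRRC32, ITGB8, ITGAV and PLAU) and 1, NRROS, was lower. LRRC32 encodes GARP, which like NRROS tethers latent TGF-beta. It averaged 3120 ± 1310 scaled reads in S80A cells at 3 hr and 21.3 ± 10.8 at 0 hr, against 358 ± 33.3 in WT cells at 3 hr and 3.29 ± 2.89 at 0 hr (SD, n = 3 each). The log2 difference at 3 hr was 3.04 ± 0.32 (SE, limma adjusted p = 0.00121). At 0 hr its difference was 2.48 ± 0.65 (SE, limma adjusted p = 0.0402), which was lost in 5 of 14 alternatives, up to 0.12. ITGB8 and ITGAV encode the chains of the integrin alpha v beta 8, which releases TGF-beta from its latent complex. ITGB8 averaged 3007 ± 170 in S80A cells and 434 ± 175 in WT cells at 3 hr (2.87 ± 0.31 on the log2 scale, SE, limma adjusted p = 0.00134). ITGAV averaged 6536 ± 113 in S80A cells and 1231 ± 340 in WT cells (2.44 ± 0.24, SE, listed in the S80A table alone). LRRC32, listed in both tables, was thus higher in S80A cells at 3 hr, under TMM scaling as well. NRROS was lower, also under TMM scaling, with the sign that its choice favours.

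Among TGF-beta superfamily ligands, 5 of 32 were listed, and at 3 hr 2 were higher in S80A cells (INHBA and BMP6) and 1, GDF11, was lower. BMP6 averaged 354 ± 143 scaled reads in S80A cells and 109 ± 26.9 in WT cells at 3 hr (log2 difference 1.63, limma adjusted p = 0.0123), a call lost in the joint fit of all 4 groups (adjusted p = 0.064, the highest over 14 alternatives, with a lowest of 5.75e-05). GDF11 averaged 237 ± 30.4 in S80A cells and 719 ± 59.8 in WT cells (-1.60, SE 0.20, listed in the WT table alone). Of 18 receptors and co-receptors 6 were listed, with 2 higher and 1 lower at 0 hr. At 3 hr ACVR2A and ENG were higher and RGMA and TGFBR3 lower. ACVR2A, a type II receptor for activins, averaged 2834 ± 342 in S80A cells and 693 ± 91.0 in WT cells (2.03 ± 0.21, limma adjusted p = 0.00115). ENG encodes endoglin, the co-receptor most closely related to betaglycan, and averaged 6566 ± 426 in S80A cells and 1909 ± 291 in WT cells (1.79 ± 0.20, SE, listed in the WT table alone). In WT cells ENG fell and TGFBR3 rose with LPS, which favours opposite signs at 3 hr. Nothing is therefore read from their opposite directions.

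Of 15 antagonists 6 were listed, and at 3 hr 3 were higher (FSTL3, BAMBI and LDLRAD4) and 1, BMPER, was lower. FSTL3, which binds and neutralises activins, averaged 1235 ± 904 scaled reads in S80A cells and 99.6 ± 37.0 in WT cells (log2 difference 3.21 ± 0.78, SE, listed in the S80A table alone). The limma call was lost in 3 of 14 alternatives, without S80A replicate 2, WT replicate 2 or WT replicate 3. BMPER, a BMP-binding protein, averaged 7.27 ± 3.49 in S80A cells and 63.6 ± 7.20 in WT cells (-3.04 ± 0.32, SE, listed in the WT table alone). Of 16 SMADs and co-factors 7 were listed and 3 were higher at 3 hr (SMAD1, SMURF2 and ZEB2). All 3 are listed in the S80A table alone, through a rise with LPS that favours this sign. SMAD1, which carries BMP signals, averaged 369 ± 85.7 in S80A cells and 16.4 ± 2.56 in WT cells (4.39 ± 0.25, SE, listed in the S80A table alone). SMAD7, the inhibitory SMAD, averaged 2639 ± 308 in S80A cells and 2622 ± 184 in WT cells, with an interval of the log2 difference of -0.45 to 0.46 (limma adjusted p = 0.985). Without LPS it averaged 667 ± 28.7 in S80A cells and 398 ± 89.0 in WT cells (0.77 ± 0.18, SE, limma adjusted p = 0.0292), a call that held in 7 of 14 alternatives with an adjusted p of 0.00338 to 0.101. Of this list, limma called 2 higher at 0 hr (SMAD1 and SMAD7) and 2 lower (SMAD3 and ZEB2).

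Of 22 textbook targets of SMAD signalling 10 were listed, and 5 were higher in S80A cells at 3 hr (CDKN1A, CTGF, ID2, ID3 and KLF10) and 0 lower; limma called 6 higher and 0 lower at 0 hr, ID3 not among them. CTGF, a matricellular protein, averaged 1377 ± 1196 scaled reads in S80A cells and 224 ± 187 in WT cells at 3 hr (2.53 ± 0.79, SE, limma adjusted p = 0.0371). That call was lost in 4 of 14 alternatives, each leaving out 1 library: S80A replicate 1 (adjusted p = 0.0793), S80A replicate 2 (0.0829), WT replicate 2 (0.111) and WT replicate 3 (0.117), in a range from 0.000579. At 0 hr CTGF averaged 52.7 ± 29.7 in S80A cells and 2.23 ± 1.34 in WT cells (3.96 ± 0.60, SE, limma adjusted p = 0.00935).

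In the EGF family list 8 of 18 genes were listed, with 5 higher at 3 hr (ADAM17, EGFR, ERRFI1, LRIG1 and NRG1) and 0 lower, and 3 higher at 0 hr. AREG, which encodes amphiregulin, a ligand of the EGF receptor like EREG, averaged 302 ± 191 scaled reads in S80A cells and 117 ± 19.5 in WT cells at 3 hr (log2 difference 1.18, limma adjusted p = 0.068). Of 18 PDGF and VEGF genes 9 were listed, with PDGFB, PDGFA and NRP2 higher and PDGFRL, a receptor-like protein, lower at 3 hr, and 6 higher at 0 hr. VEGFC, a ligand of lymphatic endothelium, averaged 327 ± 109 in S80A cells at 3 hr and 44.2 ± 30.4 at 0 hr, against 216 ± 66.4 in WT cells at 3 hr and 1.92 ± 0.43 at 0 hr. The IGF list had IGFBP3 and IGF2 alone among 17 genes in a table, and IGF2 had 48 reads in S80A cells and 7 in WT cells at 3 hr and none at 0 hr in either. In the list of FGF, HGF and neurotrophin genes 4 of 20 were listed and 3 were higher at 3 hr, FGF18 among them. FGF18 averaged 158 ± 58.7 in S80A cells at 3 hr and 1.73 ± 1.58 at 0 hr, against 3.11 to 9.40 over the WT libraries at 3 hr and a mean of 3.32 ± 2.19 at 0 hr. Its log2 difference at 3 hr was 4.64 ± 0.42 (SE), and the S80A libraries at 3 hr that enter it also put the gene in the S80A table, its only one.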

How the data were processed

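RNA of 12 libraries was measured, 3 per group. Per the labels' protocols, libraries were stranded (TruSeq, polyadenylated RNA) and sequenced as single ends of 75 bases, with a target depth of 20 M. The build GRCh38 and the tools HTSeq, HISAT, FastQC, DESeq2, Cuffdiff and StringTie are named, without versions, by the submitters' processing notes. Which annotation was used is not given in the sources used here. Per genotype, the authors deposited 1 table with a log2 fold change, a p-value and an adjusted p-value, and a signal value for all 12 libraries. The deposited signal was found from the values to be the read count over a size factor (0.834 to 1.29 between libraries). In each library 100% of values came out as whole reads within 0.01. The tables hold only genes past the authors' limits, 2508 for S80A and 2335 for WT, so genes outside them were not analysed here.

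Genotype differences were fitted at each time over 3281 genes, and the interaction over the 1562 genes in both tables, with limma 3.58.1 in R 4.3.3 on log2(scaled reads + 1), which understates changes of low genes; a result passed at an adjusted p under 0.05. Alternatives were edgeR 4.0.16 and DESeq2 1.42.0 on recovered reads, TMM, a pseudocount of 5, a minimum mean of 10 scaled reads, limma with trend and robust options, a joint fit, the replicate block and leaving out each library. Code was tested on simulated data. Limits against 0 use 3 reads over a group, and 95% intervals of read ratios are exact; both cover counting error only. Promoters come from RefSeq, gene places from GENCODE release 29. Nothing says that replicates came from separate cultures, so p-values measure the spread between these libraries, which may be technical; no pair of replicates matched within sampling noise. Same-numbered S80A and WT libraries deviated together at 0 hr (correlations 0.188, 0.245 and 0.259), so the numbers were taken to pair the samples at that time. So did same-numbered libraries at 3 hr and 0 hr of S80A cells (0.299, 0.286 and 0.196) and of WT cells (0.343, 0.207 and 0.153). Between these times, libraries of different number reached 0.153 in S80A cells and 0.156 in WT cells, so the numbers separate them less clearly. The main fits used no block.

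The members, lists, markers and tests were chosen with earlier results of these data known. By the rule, the text could name the 7 genes, up to 4 genes per list by authors' fold change and the 2 nearest profiles of each gene. Which of the list genes are given values, and the genes ITGAV, ENG, PDGFA, MERTK and GFI1 and others named only by their calls, were chosen after values were seen. Values of 2 genes that the rule or the calls take are not reported here, and they are included in all counts.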

Additional observations from a re-analysis of the deposited data

Results flagged for a closer look

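The response of PDGFB to LPS differed between genotypes by 3.50 ± 0.56 on the log2 scale (SE, limma interaction, adjusted p = 0.0057), with 6.34 in S80A cells and 2.84 in WT cells; it was the only one of the 7 genes for which this difference passed, of 2 tested. Without S80A replicate 1 at both times, an alternative chosen after seeing the data, it also passed. PLAU, the urokinase gene, differed in the same direction, by 1.96 (limma adjusted p = 0.0164, range 7.61e-05 to 0.0516), with 29508 ± 9819 scaled reads in S80A cells at 3 hr and 2145 ± 171 at 0 hr, against 4635 ± 1433 in WT cells at 3 hr and 1321 ± 212 at 0 hr (SD, n = 3 each). PLAU lost the call without WT replicate 2 (0.0511) or WT replicate 3 (0.0516) at 3 hr.

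VEGFC and NRP2, a VEGF co-receptor, differed in the other direction. VEGFC differed by -3.05 ± 0.77 (SE, limma adjusted p = 0.0475), which held in 8 of 20 alternatives over a range of 0.000708 to 0.125. NRP2 differed by -1.67 (limma adjusted p = 0.0157, 20 of 20 alternatives), and averaged 4759 ± 932 scaled reads in S80A cells at 3 hr and 1510 ± 182 at 0 hr, against 2684 ± 160 in WT cells at 3 hr and 274 ± 72.8 at 0 hr (SD, n = 3 each). MERTK, a macrophage marker, fell with LPS in both genotypes and fell less in S80A cells. The responses differed by 1.41 (limma adjusted p = 0.021, range 0.000196 to 0.0687), a call lost without WT replicate 2 at 3 hr (0.0687) or WT replicate 3 at 0 hr (0.0682). MERTK averaged 483 ± 74.3 scaled reads in S80A cells at 3 hr and 2114 ± 376 at 0 hr. In WT cells it averaged 77.0 ± 10.2 at 3 hr and 899 ± 101 at 0 hr (SD, n = 3 each).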

How the results depend on the processing

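Of 238 values of the 7 genes under alternatives, 210 kept their direction and their side of the threshold, 2 lost and 19 gained the call, and 7 changed sign, all of the last in differences that passed in no fit. The sign changed for EREG at 3 hr (0.0217 with DESeq2, -0.79 to 0.26 leaving out 1 library), PDGFB at 0 hr (-0.0353 to 0.54 leaving out 1 library) and the INHBA interaction (-1.38 with edgeR, -1.48 with DESeq2, -0.398 without S80A replicate 1 at both times, -0.69 to 1.04 leaving out 1 library). Among list genes it changed for SMAD7 at 3 hr (-0.19 with edgeR and with TMM scaling, -0.0847 to 0.0789 leaving out 1 library), the ITGB8 interaction (0.22 with a pseudocount of 5, -1.05 to 0.74), the BMP6 interaction (-0.18 to 1.24), THBS1 at 3 hr (-0.96 to 0.00876) and KDR at 3 hr (-0.79 to 0.0625), none of which passed.

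Leaving out 1 library, the calls over all listed genes ranged from 1055 to 1788 around 1541 at 3 hr, from 497 to 1200 around 1007 at 0 hr and from 36 to 123 around 70 for the interaction. The 0 hr count fell most without WT replicate 3 (497), S80A replicate 2 (517), WT replicate 2 (529) and WT replicate 1 (616). The interaction count was 155 with DESeq2, 464 with all genes in either table tested and 187 without S80A replicate 1 at both times; the cause was not tested. With the replicate block it was 104 and the PDGFB interaction passed, and the counts were 1493 at 3 hr and 1009 at 0 hr. On recovered reads edgeR called 1610 genes at 3 hr (842 higher, 768 lower) and 1068 at 0 hr (540 higher, 528 lower). At 3 hr same-numbered S80A and WT libraries had correlations of 0.153, 0.196 and 0.064, while S80A replicate 2 and WT replicate 3 reached 0.147. Between genotypes at 3 hr the numbers therefore did not separate pairs, although same-numbered libraries at 3 hr and 0 hr deviated together. IGFBP3 had a limma adjusted p of 0.0351 at 3 hr under the block. At 0 hr the block changed the call of ID3 and of no other of the 7 genes. EREG and INHBA had few reads at 0 hr (28 and 18 in S80A cells, 0 and 2 in WT cells), which limits what can be said of them there.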

Other observations

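Before LPS, KDR and THBS1, which are not among the 7 genes, had higher means in S80A than in WT cells. KDR, a VEGF receptor, averaged 58.4 ± 26.2 scaled reads in S80A cells and 2.50 ± 0.93 in WT cells at 0 hr (SD, n = 3 each; log2 difference 4.03, SE 0.37), and 6.63 ± 3.88 in S80A cells and 8.89 ± 3.88 in WT cells at 3 hr (-0.47, limma adjusted p = 0.484). THBS1, thrombospondin 1, a matrix protein that can release latent TGF-beta, averaged 657 ± 350 in S80A cells and 80.1 ± 4.95 in WT cells at 0 hr (2.84, SE 0.48). At 3 hr it averaged 1088 ± 778 in S80A cells and 1396 ± 786 in WT cells (limma adjusted p = 0.599). Both genes are listed in 1 table alone, through values that enter the 0 hr differences and favour their sign, so no p is given for these, and the difference between times was not tested for them.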
